A study of Mus musculus with 10 samples.

Results

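The genes for the protein components of the cytoplasmic ribosome were followed in ATAC-seq of naive CD4 T cells with and without Satb1. Members were taken by symbol: Rpl or Rps followed by a number, with Rplp0, Rplp1, Rplp2 and Rpsa added and pseudogene symbols left out. The rule used no measured value. It found 267 of 61571 annotated peaks, which carried 79 of 14287 gene symbols, 50 of the large and 29 of the small ribosomal subunit. Of these, 188 peaks and 77 genes held enough counts to test, Rpl39l and Rpl7a being the genes that did not.

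Each ribosome joins 1 copy of nearly every ribosomal protein to the ribosomal RNAs, so the cell makes these proteins in step. The small subunit reads the mRNA, and the large subunit joins amino acids and passes the growing chain out through an exit tunnel. The genes are among the most active in any dividing cell, and naive T cells, which rest with little cytoplasm, raise protein synthesis when they are activated. Mammalian ribosomal protein mRNAs begin with a run of pyrimidines, the 5′ TOP motif, through which mTOR and LARP1 set their translation. ATAC-seq reports how open the DNA is to a transposase, not how much mRNA is made.

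All 10 libraries came from sorted naive T cells (CD3+CD4+CD25-CD44low/-CD62L+) of spleen and lymph node, 60000 cells per library, from mice of 1 genotype, Satb1fl/fl x CD4-CreERT2wt/+. The 5 KO libraries came from animals given tamoxifen, which activates the Cre that CD4 drives and so deletes floxed Satb1 in CD4-expressing cells. The 5 WT libraries came from untreated animals that carry the same floxed alleles and the same Cre. Deletion of Satb1 and exposure to tamoxifen therefore cannot be told apart in any KO against WT value. Tamoxifen dose, time after treatment, and age are not given in the sources used here. The span of Satb1 between the loxP sites is not given either, so no peak served as a check of the deletion. No label ties a library to its own animal, and the p-values describe how these libraries vary, which may be technical variation.

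In-peak totals ran from 673398 to 2184717 counts. Over 20129 well-covered peaks, 12 of the 20 library pairs of the same group differed by no more than counting noise (chi-square p above 0.05), against 0 of the 25 pairs of unlike groups. Chi-square over its degrees of freedom was 0.875 to 1.33 over all same-group pairs and 1.06 to 1.64 over the others. It was below 1 in 9 same-group pairs, and the lowest values are less than counting noise alone gives. The reason was not tested. Because of the close pairs, results were computed again with the closest pairs within counting noise merged, each library in at most 1 pair. This left 3 KO and 3 WT. Some libraries left apart there, such as Sample_2276_WT and Sample_2277_WT, also differed by no more than counting noise. Among marker lists, 9 of 10 CD4 T cell genes had peaks, with summed levels of 2504 to 2611 CPM (counts scaled to a library size of 1e6) in KO and 2342 to 2546 in WT. Of these 9, all tested, 2 were called higher, Il7r among them, where 2.19% of all tested genes were called in either direction. Of 5 B cell markers, 3 had no annotated peak, Ms4a1 and Pax5 among them, and the other two summed to 30.0 to 37.4 CPM in KO and 34.5 to 41.5 in WT. The summed CD8 T cell markers had 23.4 to 33.3 CPM in KO and 26.5 to 31.8 in WT, the NK marker with peaks 125 to 163 and 116 to 136, the myeloid markers 48.3 to 78.2 and 61.5 to 76.2, and the erythroid marker with peaks 24.8 to 33.4 and 30.4 to 36.0. None of these was called, and 6 of the 13 could be tested.

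Promoters are shown for members whose start-site peaks were among the most open per base, and for Rpl11. The strongest change was at a distal peak assigned to Rpl11, and the sequence of that peak is not shown. The Rpl11 window extends upstream past its start-site peak, which spans chr4:136052955-136053571. RefSeq (GRCm38.p6, the assembly called mm10) listed promoters for 60 of the 79 members. Rplp1 was among the 19 without an entry. Each sequence below runs 5′ to 3′ on the gene's strand from 250 bases before the start site to 50 bases after it. Rpl37 lies at chr15:5116363-5116662 (plus strand), Rpl28 at chr7:4792715-4793014 (plus), Rps19 at chr7:24884426-24884725 (plus) and Rpl11 at chr4:136053344-136053643 (minus). Capitals mark matches, on either strand, to CCGGAAG (ETS factors), GGGCGG (Sp and Krueppel-like factors) or TCGCGA. Rpl28 held none of the 6 motifs searched.
Rpl37: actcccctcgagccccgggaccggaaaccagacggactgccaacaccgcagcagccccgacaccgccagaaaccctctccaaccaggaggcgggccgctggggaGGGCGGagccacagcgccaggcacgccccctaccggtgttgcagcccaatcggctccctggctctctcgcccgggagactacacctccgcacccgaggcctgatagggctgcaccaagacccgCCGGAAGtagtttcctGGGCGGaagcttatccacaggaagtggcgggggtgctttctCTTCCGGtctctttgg
Rpl28: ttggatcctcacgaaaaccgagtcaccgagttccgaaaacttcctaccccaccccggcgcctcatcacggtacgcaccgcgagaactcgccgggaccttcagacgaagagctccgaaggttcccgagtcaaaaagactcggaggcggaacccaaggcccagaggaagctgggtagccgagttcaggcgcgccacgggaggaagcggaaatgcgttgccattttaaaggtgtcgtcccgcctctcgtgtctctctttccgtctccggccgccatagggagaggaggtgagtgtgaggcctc
Rps19: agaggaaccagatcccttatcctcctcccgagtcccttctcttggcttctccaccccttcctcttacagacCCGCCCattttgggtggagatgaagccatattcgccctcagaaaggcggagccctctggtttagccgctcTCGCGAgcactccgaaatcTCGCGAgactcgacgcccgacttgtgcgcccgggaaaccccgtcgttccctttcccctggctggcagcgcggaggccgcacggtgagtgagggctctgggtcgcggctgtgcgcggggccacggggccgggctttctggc
Rpl11: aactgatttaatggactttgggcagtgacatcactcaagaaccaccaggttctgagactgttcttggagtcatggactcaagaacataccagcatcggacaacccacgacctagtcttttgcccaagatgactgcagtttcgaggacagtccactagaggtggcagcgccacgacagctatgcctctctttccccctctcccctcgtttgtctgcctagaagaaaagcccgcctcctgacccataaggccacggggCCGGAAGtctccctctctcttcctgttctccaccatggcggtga

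CCGGAAG was present in 23 of the 60 member promoters (38.3%), against 8.86% of all 32851 RefSeq promoters and 21.6% of the 10578 whose start lies in a peak. TCGCGA was present in 13 members (21.7%), against 2.50% and 5.97%, and AAGATGG, the YY1 core, in 10 (16.7%), against 6.34% and 7.76%. GGGCGG was present in 36 members (60.0%), which lies above the 35.7% of all promoters and below the 69.2% of those in peaks. TATAAA (11.7%, against 13.6% and 5.66%) and the E-box CACGTG (8.33%, against 7.15% and 11.2%) were rare in all 3 sets. The median GC content was 57.5% in members, 52.7% over all promoters and 62.0% over those in peaks. These are matches of letters in a window and show no binding.

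Runs of pyrimidines at the start site were more frequent in members than in the other promoters. Within 10 bases on either side of the start, the longest unbroken run of C and T reached 8 bases or more in 20 of 60 members (33.3%), against 7.89% of all promoters and 7.62% of those in peaks. Within 30 bases, a window chosen after the data were seen, the shares were 55.0%, 23.1% and 19.9%. The 6 members with the longest runs are shown first, then Rps6, the target of the S6 kinases, and Rpl10, whose run is short. Each sequence holds 15 bases before the start site and 15 from it on, and capitals mark the longest run inside the 10 bases on either side.
Rpl35: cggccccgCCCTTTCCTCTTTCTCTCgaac
Rpl7a: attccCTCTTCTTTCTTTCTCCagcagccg
Rpl15: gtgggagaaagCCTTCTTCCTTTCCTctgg
Rpl27a: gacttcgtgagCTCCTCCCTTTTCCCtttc
Rpl14: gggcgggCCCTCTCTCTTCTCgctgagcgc
Rps10: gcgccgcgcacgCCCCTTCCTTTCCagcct
Rps6: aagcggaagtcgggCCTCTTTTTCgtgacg
Rpl10: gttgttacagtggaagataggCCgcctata
The runs of the first 6 were 18, 17, 15, 15, 14 and 13 bases, and that of Rps6 was 10. Rpl35 lies at chr2:39005117-39005146 (minus), Rpl7a at chr2:26910792-26910821 (plus), Rpl15 at chr14:18270972-18271001 (minus), Rpl27a at chr7:109519180-109519209 (plus) and Rpl14 at chr9:120571502-120571531 (plus). Rps10 lies at chr17:27635230-27635259 (minus), Rps6 at chr4:86857353-86857382 (minus) and Rpl10 at chrX:74270801-74270830 (plus).

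Nearly every ribosomal protein gene had an open start site in both groups. A peak covered the annotated start site, at a deposited distance of 0, in 72 of the 79 genes, and all 72 peaks could be tested. Per kb of peak width, the median WT level was 108 CPM in members and 97.9 CPM over all 8811 tested start-site peaks, and 50 of the 72 members lay above the latter. Their width was close to that of other start-site peaks (median 496.5 bp against 504 bp). The peaks reached a median of 247 bp upstream and 187.5 bp downstream of the start. Across the 72 peaks, WT CPM followed peak width (Spearman 0.78, Pearson 0.85 on log2 values, n = 72 peaks of the same libraries), a description in which both measures come from the same reads.

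Among the most open start sites per kb in WT were those of Rpl37 (179 ± 15.9 CPM per kb, SD, n = 5), Rpl28 (175 ± 19.1), Rps19 (165 ± 32.8) and Rpl41 (163 ± 17.9), and each differed from the next named by less than its SD. Rpl37, Rpl28 and Rpl41 belong to the large subunit, and Rps19 to the small one. Rps19, the gene most often mutated in Diamond-Blackfan anaemia, had the widest of these peaks at 927 bp. The lowest were Rpl13 (64.4 ± 8.58), Rpl36a (69.1 ± 5.49) and Rpl39 (69.5 ± 11.4), again within 1 SD of each other, and Rpl36a and Rpl39 are X-linked.

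**Figure D1:**
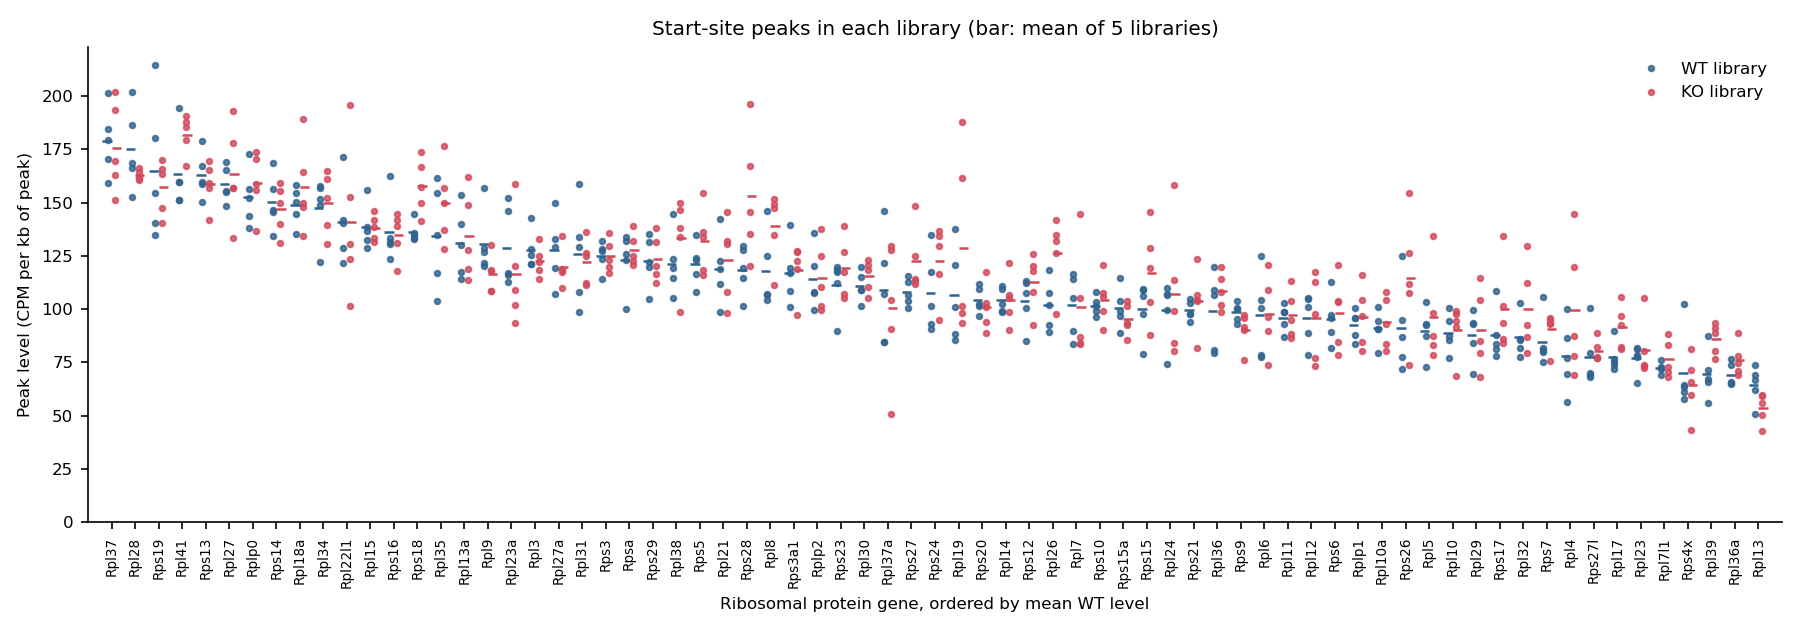
Level of 71 of the 72 start-site peaks in CPM per kb of peak width, each point 1 library (WT blue, KO red) and each short bar the mean of 5 libraries. Genes run from Rpl37 (179 in WT) to Rpl13 (64.4 in WT), and the WT and KO points overlap in every gene plotted.

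None of the 72 start-site peaks was called different between KO and WT (edgeR, adjusted p under 0.05), and the KO and WT libraries overlapped in all 72. Over all start-site peaks 0.738% were called and 1.42% did not overlap. Before adjustment, 2 passed p under 0.05 upward (Rpl39 and Rps28, against 3.06% of all start-site peaks) and 1 downward (Rpl13, against 3.88%), together 4.17% against 6.95%. DESeq2 and limma-voom also called 0 of the 72, against 0.159% and 0.658% of all start-site peaks. The median log2 fold change was 0.02, against -0.02 over all start-site peaks, and it ranged from -0.31 to 0.31, with a median SE of 0.101. The 95% interval of the fold lay within 1.5-fold of no change for 70 of 72 peaks and within 2-fold for all 72. The exceptions at 1.5-fold were Rpl4 (0.933 to 1.58) and Rps26 (0.967 to 1.54), both with few counts. The median member start-site peak held 36 to 112.5 counts per library, which limits the detection of smaller differences.

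**Figure D2:**
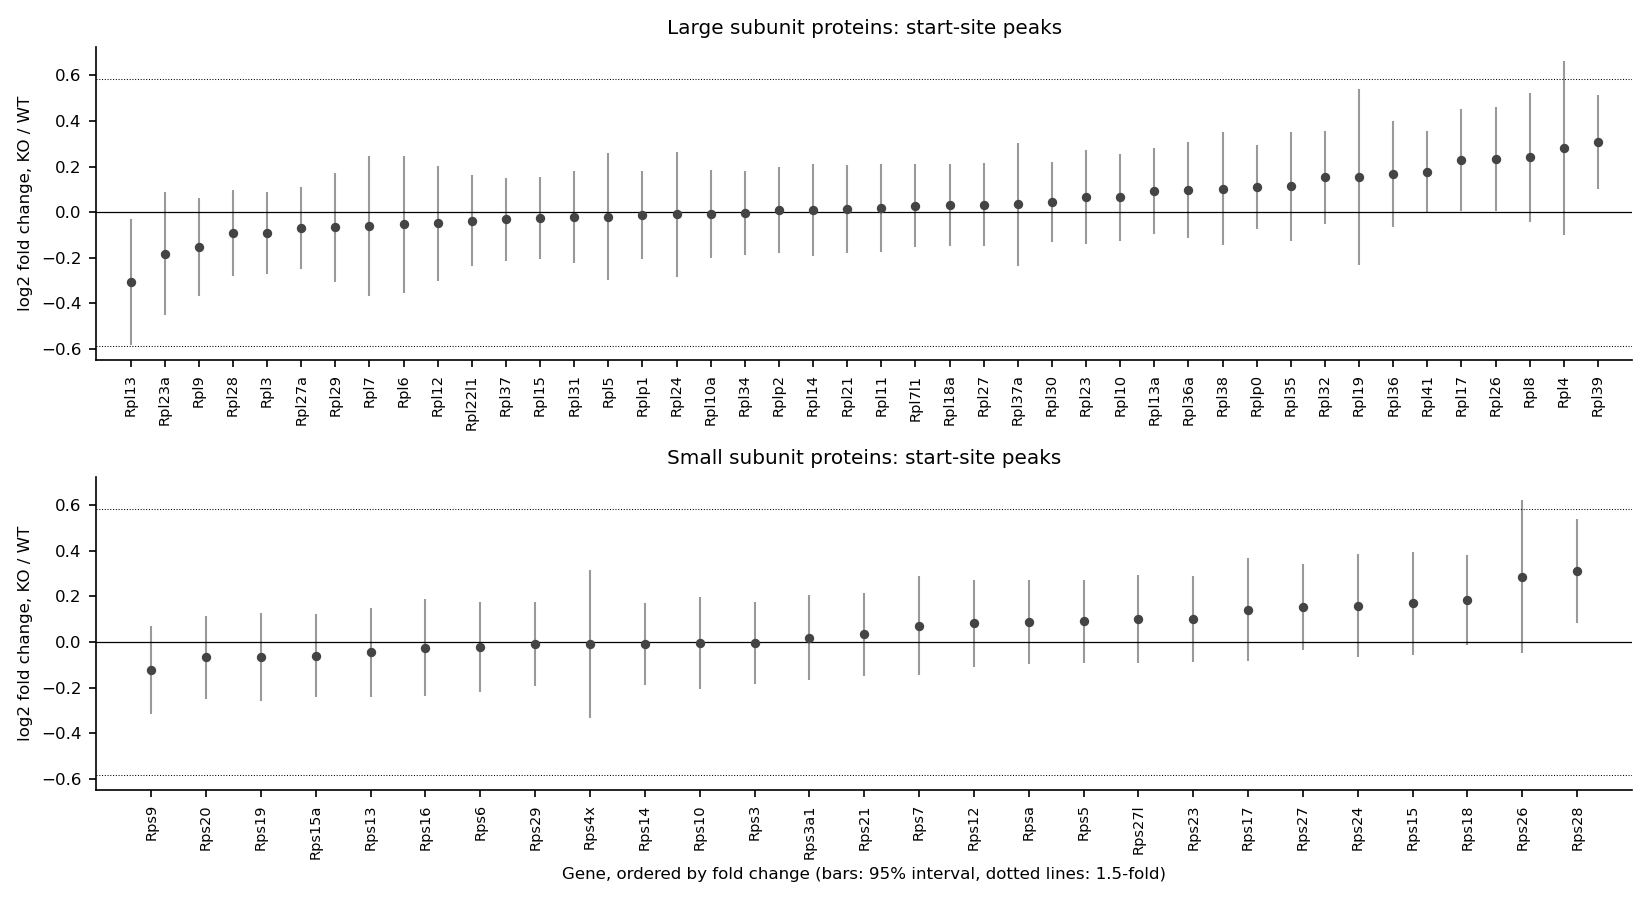
Log2 fold change, KO over WT, of 71 of the 72 start-site peaks with their 95% intervals, large subunit above and small subunit below, ordered by value. The dotted lines stand at 1.5-fold, and only the intervals of Rpl4 and Rps26 cross one.

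Rpl39, whose small protein lines the exit tunnel, came nearest to a call at its start site. Its peak at chrX:37085038-37085696 measured 61.6, 58.4, 60.0, 50.5 and 52.9 CPM in KO and 57.6, 37.0, 47.0, 44.3 and 43.2 CPM in WT. The means were 56.7 ± 4.76 and 45.8 ± 7.53 CPM (SD, n = 5), 1.24-fold (95% interval 1.07 to 1.43, edgeR adjusted p = 0.0928). A single WT library, Sample_2273_WT, lay among the KO values, and without it the peak was called (adjusted p = 0.0405). The start-site peak of Rps28, at chr17:33824397-33824715, had 48.8 ± 9.46 CPM in KO and 37.8 ± 3.58 in WT (SD, n = 5), 1.24-fold (adjusted p = 0.144). It also covers the RefSeq start of Ndufa7. The start-site peak of Rpl13, a large-subunit protein, had 24.0 ± 3.18 CPM in KO and 28.8 ± 3.83 in WT, 0.81-fold (adjusted p = 0.332).

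Of members with known extra roles, none was called at the start site, and their KO and WT ranges overlapped. Rps3, which sits where mRNA enters the small subunit, had 71.0 ± 4.36 CPM in KO and 71.0 ± 3.90 in WT (SD, n = 5), a fold of 0.997 (0.881 to 1.13). Rps6 had 69.1 ± 11.9 and 67.0 ± 8.14 CPM (0.985-fold), and Rps19 had 146 ± 11.8 and 153 ± 30.4 CPM (0.955-fold). Rplp0, the base of the stalk that recruits translation factors, had 68.1 ± 6.30 and 65.3 ± 5.69 CPM (1.08-fold). Rpl10, a late-joining large-subunit protein mutated in some T cell leukaemias, had 63.5 ± 8.73 and 62.6 ± 6.20 CPM (1.05-fold). Rps4x, the X-linked copy of a small-subunit protein, had 19.8 ± 4.36 and 21.5 ± 5.63 CPM (0.994-fold). Rpl22l1, the paralogue of Rpl22, had 76.8 ± 19.5 and 76.7 ± 10.4 CPM (0.975-fold), in a peak that also covers the start of Gm32950.

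Summed over the 72 start-site peaks, KO libraries held 4217 ± 247 CPM and WT libraries 4076 ± 196 CPM (SD, n = 5), a ratio of 1.03. The ranges overlapped, 3903 to 4486 CPM in KO and 3840 to 4331 in WT. The sum was highest in Sample_2270_KO, the library with the fewest counts, and low in Sample_2275_WT and Sample_2271_KO, which are among the deepest. The part of depth in the ratio was not tested. The ratio stayed between 1.015 and 1.054 under the other scalings and with each library left out.

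Off the start site, 116 of 195 member peaks could be tested, and the 3 calls among all members lay here, all in distal intergenic DNA. They are 2 peaks higher and 1 lower in KO among the 66 tested distal peaks, or 4.55%, against 5.69% of all tested distal peaks (4.4% higher, 1.3% lower). Of the tested member peaks off the start site 2.59% were called, against 4.91% of all tested peaks off the start site. Over all 188 tested member peaks, 1.60% were called and 1.60% did not overlap between groups, against 3.85% and 3.96% of all tested peaks. The 35 tested flanking promoter peaks, 9 intron peaks and 6 peaks in exons, UTRs or downstream held 0 calls by edgeR, where all peaks of these classes had 2.63%, 6.6% and 3.37%. Before adjustment, 2 flanking peaks, 0 intron peaks and 0 of the exon class passed p under 0.05, both flanking ones downward (against 3.63% of all flanking peaks), where 19.5% of all intron peaks and 13.5% of all peaks of the exon class passed. Here the annotation assigns a peak to the nearest gene. Of the 25 member peaks in introns or exons by RefSeq transcripts, 24 lay in a transcript of another gene, such as the Dipk1a introns for Rpl5 and the Pxn introns for Rplp0. The 3 peaks of Rpl32l, which RefSeq lists as a processed pseudogene, lay in introns of Map7.

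**Figure D3:**
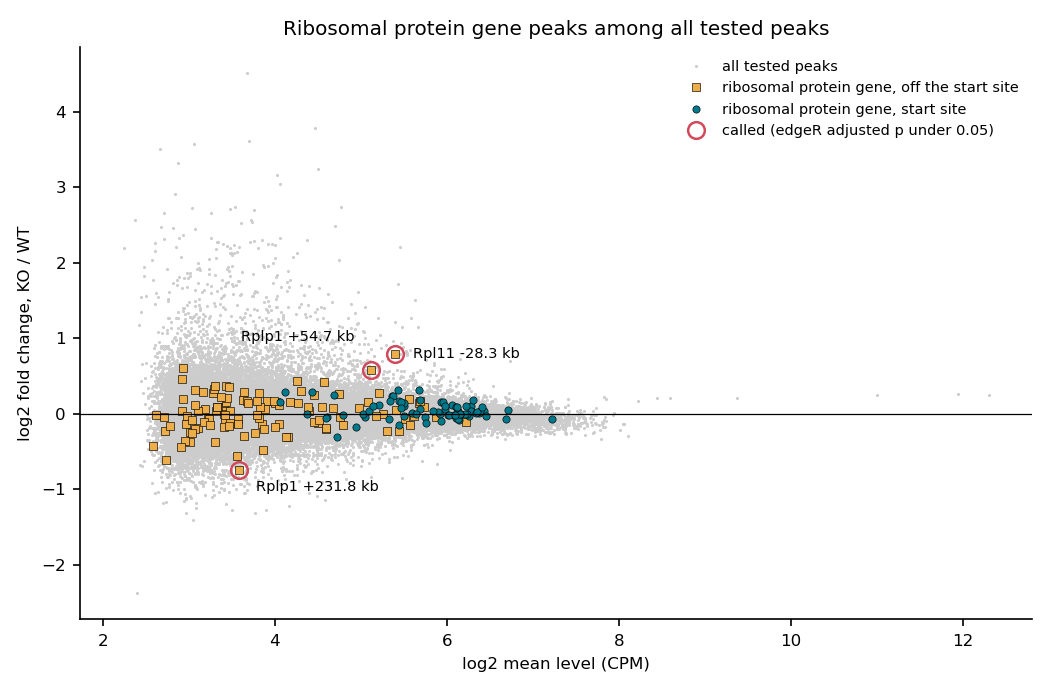
Log2 fold change (KO over WT) against log2 mean CPM for a part of the 34910 tested peaks (grey), with the start-site (teal) and other (orange) peaks of ribosomal protein genes. The 3 circled peaks were called, and every start-site peak lies between -0.31 and 0.31.

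The strongest change was a distal peak assigned to Rpl11, whose protein joins Rpl5 and 5S ribosomal RNA and can bind MDM2, the inhibitor of p53. The peak at chr4:136081701-136082158 lies 28330 bp upstream of the Rpl11 start site, in the interval between Rpl11 and Id3. Its level was 50.4, 45.9, 51.7, 63.3 and 52.4 CPM in KO and 33.7, 33.1, 31.3, 26.5 and 31.8 CPM in WT. Every KO library lay above every WT library. The means were 52.7 ± 6.42 and 31.3 ± 2.86 CPM (SD, n = 5), 1.73-fold (95% interval 1.48 to 2.02, edgeR adjusted p = 1.88e-07). The call held in all 21 alternatives run, with a log2 fold change of 0.68 to 0.90. Among them, the alternative that filled missing symbols from RefSeq alters gene sums only, so for peaks it repeats the main fit. It is also counted among the alternatives for the Rplp1 peaks below.

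The other Rpl11 peaks did not pass the test. The start-site peak had 60.0 ± 6.92 CPM in KO and 59.2 ± 3.83 in WT (SD, n = 5), 1.01-fold. A peak 16659 bp upstream had 22.5 ± 4.77 and 15.7 ± 2.64 CPM (1.34-fold, edgeR adjusted p = 0.219), and one 42415 bp upstream had 12.2 ± 3.46 and 16.8 ± 2.34 CPM (0.715-fold, adjusted p = 0.218). Rpl11 and Id3 are the RefSeq genes on either side of the called peak, 28.3 kb and 61.7 kb away, and which gene the peak acts on was not tested.

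Rplp1, an acidic protein of the stalk, had the most peaks of any member, 36, of which 24 could be tested. The peak at chr9:61859360-61859840, 54670 bp downstream of its start site, measured 43.2, 37.5, 40.0, 45.2 and 39.4 CPM in KO and 32.6, 31.5, 26.1, 27.9 and 23.0 CPM in WT. All KO values lay above all WT values, with means of 41.1 ± 3.07 and 28.2 ± 3.93 CPM (SD, n = 5), 1.49-fold (1.26 to 1.76, edgeR adjusted p = 0.000884). The call ended with DESeq2 (adjusted p = 0.0565) and held in the other 19 of 20 alternatives. A neighbouring peak 53856 bp downstream had 27.2 ± 5.27 and 20.3 ± 5.21 CPM, 1.33-fold (adjusted p = 0.140). In the edgeR fit without Sample_2274_WT this neighbour was called (1.49-fold, adjusted p = 0.0258).

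The peak at chr9:61682514-61682724, 231786 bp downstream of the Rplp1 start, went the other way. It measured 8.80, 8.34, 10.0, 8.51 and 9.98 CPM in KO and 10.9, 22.1, 14.6, 13.6 and 12.8 CPM in WT. All KO values lay below all WT values, with means of 9.13 ± 0.806 and 14.8 ± 4.30 CPM (SD, n = 5), 0.594-fold (0.439 to 0.803, edgeR adjusted p = 0.0314). This call rested on 6 to 40 counts per library and ended in 8 of 19 alternatives, among them DESeq2 (adjusted p = 0.298) and the fit without Sample_2274_WT, the highest WT library (0.262). It also ended without Sample_2268_KO, Sample_2269_KO, Sample_2271_KO or Sample_2272_KO (0.0546 to 0.0931). Both Rplp1 peaks lie in the interval between Rplp1 and Tle3, a co-repressor gene, and the lower one is 231 kb from Rplp1 and 264 kb from Tle3. The 3 calls were the same with the closest libraries merged and without the 3 libraries of lowest total.

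**Figure D4:**
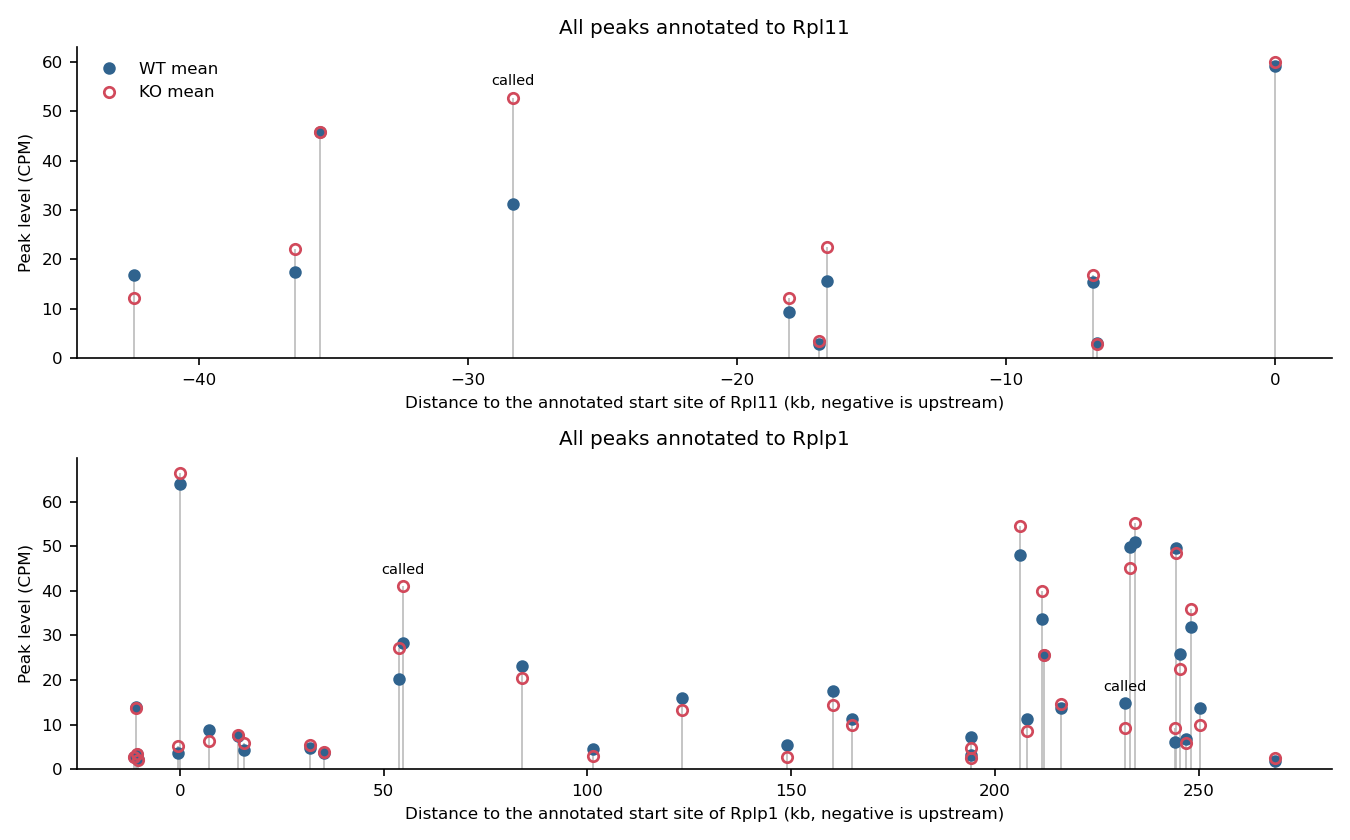
Mean CPM of each peak assigned to Rpl11 (upper panel) and Rplp1 (lower panel) in WT (filled blue) and KO (open red) against the distance to the annotated start site in kb. Called peaks are marked, and the start-site peaks at 0 have close means in both groups.

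**Figure D5:**
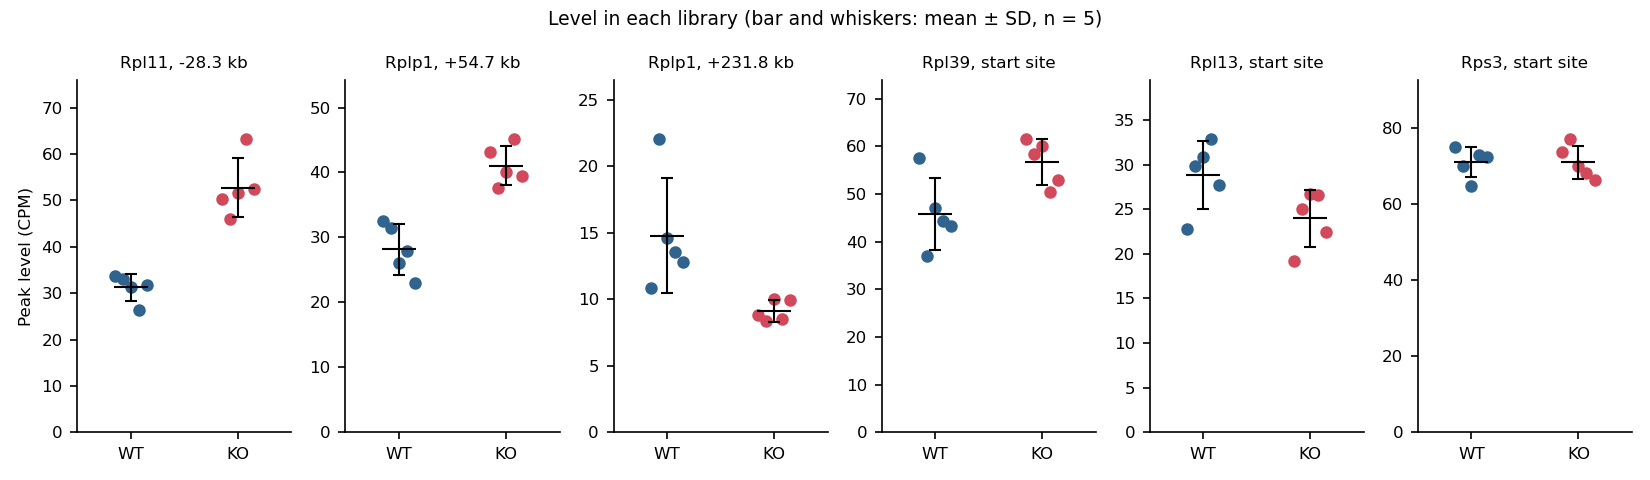
Level in CPM of 6 peaks in each of 5 WT (blue) and 5 KO (red) libraries, with the mean and SD. The 3 called peaks on the left do not overlap between groups, whereas the start-site peaks of Rpl39, Rpl13 and Rps3 do.

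Summed over all peaks of a gene, none of the 77 tested members was called (edgeR, against 2.19% of all 12489 tested genes), and before adjustment 5 passed p under 0.05 upward (against 6.72% of all genes) and 2 downward (against 5.74%), together 9.09% against 12.5%. DESeq2 called 0 (0.873% of all genes) and limma-voom 1, Rpl11 (2.12% of all genes). The median log2 fold change was 0.02, against -0.01 over all genes, and the range was -0.31 to 0.27. The large subunit (48 tested, 5 up and 1 down before adjustment, median 0.02) and the small subunit (29 tested, 0 up and 1 down, median 0.02) had the same median.

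Rpl11 stood nearest to the threshold. Its sum was 251 ± 8.89 CPM in KO and 217 ± 10.3 in WT (SD, n = 5), the only gene sum of members without overlap between groups (3.23% of all genes), 1.15-fold (1.06 to 1.24, edgeR adjusted p = 0.0577). It was called under 5 alternatives (adjusted p 0.0222 to 0.0494). The Rpl11 sum includes the called peak 28330 bp upstream (52.7 CPM in KO, 31.3 in WT), so it is not separate from that call. The Rpl11 start-site peak was 1.01-fold. By fold, the largest increases were not that of Rpl11 but those of Rpl39 (70.5 ± 5.27 against 57.7 ± 6.37 CPM, 1.21-fold, adjusted p = 0.123), Rpl26 (1.19-fold, 0.299), Rpl4 (1.18-fold, 0.560) and Rpl17 (1.18-fold, 0.332). The largest decreases were those of Rpl13 (0.809-fold, 0.369), Rps27a (0.852-fold, 0.389), Rpl23a (0.882-fold, 0.671) and Rps20 (0.897-fold, 0.437). Rps27a, made as a fusion with ubiquitin, had 39.1 ± 3.68 CPM in KO and 47.9 ± 5.65 in WT, in a peak 30 bp upstream of its annotated start. Rplp1 had 650 ± 25.3 and 639 ± 22.4 CPM over its 36 peaks (1.02-fold), and Rpl34, with 22 peaks, had 283 ± 16.2 and 275 ± 14.1 CPM (1.02-fold).

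By position in the ribosome, no list held a call by edgeR or DESeq2 in gene sums. The 3 stalk genes had log2 fold changes of 0.01 to 0.12. The 5S particle genes were Rpl11 (0.20) and Rpl5 (0.14, 176 ± 31.4 against 154 ± 14.5 CPM). At their start-site peaks the log2 fold changes were 0.02 and -0.02. The Rpl5 start-site peak held 28.7 CPM in KO and 26.8 in WT, and other peaks in its sum lay in Dipk1a introns. Of the 8 genes of the exit tunnel and its rim, Rpl39, Rpl26 and Rpl17 passed p under 0.05 upward before adjustment (against 6.72% of all genes), and the list's median was 0.22, with Rpl23a at -0.18. The 13 Diamond-Blackfan genes had a median of 0.05, the 3 tested genes of mRNA entry and decoding 0.02, the 3 tested tissue paralogues 0.02 and the 4 X-linked genes 0.08. Members that share a list overlap between lists, and Rpl39 and Rpl26 each count in more than 1.

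Other genes of protein synthesis gave no call either by edgeR, DESeq2 or limma-voom. They comprised 23 tested genes of ribosome assembly (median log2 fold change -0.03), 12 of RNA polymerase I (0.03), 30 translation factors (0.03), 7 S6 kinases (-0.04), 7 TOP regulators (-0.08) and 66 mitochondrial ribosomal proteins (0.03), beside Rack1. Before adjustment, Nop10, Taf1b and Eif4a2 passed p under 0.05 upward and Rrn3 and Eif4ebp2 downward, with 2 mitochondrial ribosomal proteins up and 1 down. Over all genes 6.72% passed upward and 5.74% downward. Either way it was 4.35% of the ribosome assembly genes and 4.55% of the mitochondrial ribosomal proteins, against 12.5% of all genes. The translation factors had 3.33% and the S6 kinases 0%. RNA polymerase I (16.7% of 12 tested) and the TOP regulators (14.3% of 7) lay above the share of all genes, on few genes each. Rrn3, the initiation factor of RNA polymerase I, was nearest to the threshold (72.9 ± 6.25 against 88.0 ± 7.52 CPM, 0.82-fold, edgeR adjusted p = 0.0581). Eif4ebp2, a repressor of cap-dependent translation that mTOR inactivates, had a fold of 0.864 (edgeR adjusted p = 0.165). Eef1a1, an elongation factor with a TOP mRNA, had 184 ± 10.3 and 187 ± 18.1 CPM, and Rack1, on the small subunit, had 169 ± 9.96 and 168 ± 16.4 CPM.

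The 7 genes without a start-site peak in the annotation were Rpl18, Rpl22, Rpl32l, Rpl35a, Rpl39l, Rpl7a and Rps27a. For 3 of them the RefSeq start lay in a peak assigned to the neighbour that starts there. The Rpl7a start lay in a Med22 peak (61.1 ± 7.02 CPM in KO, 59.5 ± 6.05 in WT, SD, n = 5, 1.01-fold), the Rpl35a start in an Iqcg peak (42.8 ± 4.87 and 41.2 ± 7.48, 1.03-fold) and the Rpl18 start in a Sphk2 peak (51.2 ± 5.77 and 46.6 ± 5.06, 1.07-fold). Rpl22, which early T cells need in the thymus, has a RefSeq start 1290 bp downstream of the deposited one, under a peak with 72.0 ± 8.22 and 77.8 ± 5.52 CPM (0.923-fold). For Rpl13a, which also silences inflammatory mRNAs, the deposited start lay 7539 bp from the RefSeq start, and its peak of distance 0 covers the start of Flt3l (78.8 ± 12.1 and 76.9 ± 9.59 CPM). The peak over the RefSeq start of Rpl13a, chr7:45128670-45129144, carries no symbol and the gene number of Snord33, and it had 94.2 ± 5.53 and 101 ± 10.7 CPM (0.935-fold, edgeR adjusted p = 0.732). None of these peaks was called. In all, 9 start-site peaks of members also covered the RefSeq start of another gene, among them Vps52 for Rps18 and Rab13 for Rps27, and counts there cannot be divided between the genes.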

How the data were processed

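Per the submitters' processing notes, the build was mm10 and the tools included Bowtie2 2.3.5, MACS2 2.1.2 and ChIPseeker 1.18.0. Read shift, treatment of duplicates and pooling for peak calling are not given in the sources used here. The authors deposited raw read counts for 61581 peaks of 1 common set and, in a second table, each peak's position, width, nearest gene and distance to its start site in bp. The table lists 10 mitochondrial peaks that the annotation does not, and 7971 annotated peaks have no symbol. If duplicates were removed, counts of dense peaks would be capped in deep libraries. Member start-site peaks held at most 0.382 counts per base.

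Counts were tested with edgeR 4.0.16 in R 4.3.3 (quasi-likelihood, TMM, filterByExpr, no covariate), with Benjamini-Hochberg adjustment over all 34910 tested peaks, and the same for 12489 gene sums by symbol. A call is an adjusted p under 0.05. CPM is the count divided by the library's tested-peak total times its TMM factor, times 1e6. Folds are edgeR's fitted values, which weight libraries by depth and can differ from the ratio of mean CPM. Their 95% intervals (1.96 SE, the SE taken from the F statistic) are approximate. The fits were also run on simulated counts of independent libraries, with changes larger than any called member change. That run cannot show how well smaller changes are found. Alternatives used DESeq2 1.42.0, limma 3.58.1, other scalings, filters and libraries. A start-site peak has a deposited distance of 0.

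Members and gene lists were chosen with earlier results of these data known. Named genes are the called ones, those with the 5 highest and 3 lowest WT start-site levels per kb, the 4 largest gene changes and 3 smallest peak p-values per direction, the 3 with most peaks, and 12 with special roles. Others were chosen after their values were seen. Values of some genes are not reported here, though counts and summaries include them. Promoters come from RefSeq (GRCm38.p6). No genome sequence was used here, so the called distal peaks are given by position.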

Additional observations from a re-analysis of the deposited data

Results flagged for a closer look

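Among the named peaks and gene sums, 8 of 110 groups of 5 libraries had 1 library far from the others by Dixon's ratio (above 0.71), where chance gives about 5%. The Rpl10 start-site peak, its only peak and so also its gene sum, had 48.34 CPM in Sample_2270_KO, the library with the fewest counts, and 64.37 to 69.58 CPM in the other KO libraries. Sample_2273_WT was the highest WT library at the start sites of Rps4x (31.51 CPM, the others 17.87 to 19.87) and Rpl17 (43.46 CPM, the others 35.0 to 37.16) and in the Rpl22l1 gene sum (111.9 CPM, the others 87.15 to 93.66). Sample_2276_WT was the highest for Rpl41, with 88.65 CPM at the start site (the others 68.91 to 72.86) and 97.23 CPM in the gene sum (the others 77.69 to 81.69). The Rpl34 start-site peak had 61.64 CPM in Sample_2275_WT and 75.06 to 79.72 CPM in the other WT libraries.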

How the results depend on the processing

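Of the 2 member peaks higher in KO, DESeq2 left 1, and a mean count of at least 50 (74 peaks tested) gave 1 because the Rplp1 peak was not tested there. The fit without Sample_2274_WT added a higher call, the Rplp1 peak 53856 bp downstream. The 1 lower peak became 0 with DESeq2, limma-voom and cyclic loess, and ranged from 0 to 1 over libraries left out. The count was also 0 with a mean count of at least 50 and with thinning to the smallest total (114 tested), where that peak was not tested. Member genes higher in KO went from 0 to 1, Rpl11, with the in-peak total, upper quartile, limma-voom, cyclic loess and thinning. Start-site calls ranged from 0 to 1 over libraries left out, the 1 being Rpl39 without Sample_2273_WT. For the other changes the cause was not tested. No called value changed sign. The median log2 fold change ranged from -0.01 to 0.04 for peaks and from 0.00 to 0.05 for genes. No paired analysis was possible because the KO and WT libraries share no replicate number. Counting error limits peaks of few counts most, such as the lower Rplp1 peak.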
